A study of Mus musculus with 16 samples.

Results

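The TRAV6 segments numbered 5 to 7 were 9 of the 117 V segments found in 8 libraries of T cell receptor α (TCRα) chains from mouse CD8 T cells, and they carried 9066 of the 78671 CDR3 nucleotide sequences and 111828 of the 815759 reads. A sequence was taken as a member where the V segment listed first for it was TRAV6, TRAV6D or TRAV6N with the number 5, 6 or 7 after the hyphen, with or without a DV suffix. The members were TRAV6D-5, TRAV6D-6, TRAV6D-7, TRAV6N-5, TRAV6N-6, TRAV6N-7, TRAV6-5, TRAV6-6 and TRAV6-7-DV9, and each was found in all 8 libraries.

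The libraries came from mice with a germline deletion of Themis (Themis-/- Foxp3-GFP, here KO) and from Themis+/+ Foxp3-GFP mice (here WT), both on a C57BL/6 background and both carrying the Foxp3-GFP reporter, so that the reporter did not differ between the groups. The KO line was made by crossing a Themis-deficient strain to the reporter strain, which itself served as WT. Other differences of strain origin cannot be told apart from the genotype. Themis is a signalling protein of thymocytes that takes part in their selection. Single-positive CD8 thymocytes and CD8 T cells of lymph nodes (LN) were sorted, without selection on a Vα chain, and each of the 4 groups had 2 libraries. Neither the labels nor the methods state the ages of the mice. The study's methods describe LN cells pooled from several mice of a genotype, whereas its design text speaks of individual mice, so p-values measure the spread between libraries, which may be technical. Themis itself is not measured by TCRα libraries, nor is any marker of the CD8 lineage, and both labels were taken as given. Libraries held 57455 to 146191 reads, and 7559 to 20630 of them were member reads. Reads follow the amount of TCRα mRNA, so that more cells with a segment and more mRNA per cell cannot be told apart.

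The α chain of a T cell receptor is assembled in thymocytes by joining 1 V segment to 1 J segment. The first joins use J segments at the end of the J cluster nearest to the V segments, which have the high TRAJ numbers, and a thymocyte can go on to join V segments farther away to J segments farther down until it is positively selected or dies. The TRAV6 family, known to antibodies as Vα4, lies in the part of the mouse locus that was copied in C57BL/6 mice, and D and N in a name mark the copies. The CDR3, the loop across the V-J join, begins with a cysteine of the V segment and touches the peptide that the receptor reads.

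All 9 genes lie on chromosome 14 of GRCm38, on the plus strand, and the annotation (GENCODE release M21) lists each as a T cell receptor V gene. In order towards the J cluster, the D copies were at chr14:52795165-52795633 (TRAV6D-5), chr14:52821922-52822359 (TRAV6D-6) and chr14:53007612-53008098 (TRAV6D-7). The N copies followed at chr14:53104871-53105344 (TRAV6N-5), chr14:53132679-53133137 (TRAV6N-6) and chr14:53318798-53319284 (TRAV6N-7). The copies with no letter were at chr14:53491115-53491622 (TRAV6-5), chr14:53516929-53517366 (TRAV6-6) and chr14:53709902-53710419 (TRAV6-7-DV9). TRAV6D-5 thus lay 1359 kb before the start of Traj61, and TRAV6-7-DV9 lay 445 kb before it. The last 30 bases of the spliced V exon are shown for 4 members because they set the start of every CDR3, with the 14 bases that enter the CDR3 in capitals:
TRAV6D-5: ctcggctgtgtactacTGTGTTCTGGGTGA
TRAV6N-6: ctcggctgtgtactacTGCGCTCTGAGTGA
TRAV6N-7: ctcggctgtgtactacTGTGCTCTGGGTGA
TRAV6-7-DV9: ctcggctgtgtactacTGTGCTCTGAGTGA
The end of TRAV6N-7 was shared by TRAV6D-6, TRAV6D-7, TRAV6N-5 and TRAV6-6, and that of TRAV6-7-DV9 by TRAV6-5. The germline ends therefore differed mainly in whether the fourth codon reads GGT, for glycine, or AGT, for serine. All ended in GA, the start of a codon for aspartate or glutamate.

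These ends show how far a CDR3 can name its V copy. Over the last 280 bases of the reference transcripts, TRAV6-6 and TRAV6D-6 had 0 mismatches, TRAV6D-7 and TRAV6N-7 had 0, and TRAV6N-5 and TRAV6-5 had 1. In the deposited alignments, TRAV6-6 was never the only best hit: all 2132 of its sequences were tied, 1854 of them with TRAV6D-6 alone. TRAV6D-7 was tied in 1716 of its 1717 sequences, and 1714 of these ties were with TRAV6N-7 alone. TRAV6N-7, TRAV6N-6, TRAV6N-5 and TRAV6D-5 were the only best hit in all of their sequences, and TRAV6D-6 in 98.2%. A tie was counted for the segment listed first. Of the 626 nucleotide CDR3s found in at least 2 libraries, 441 (70.4%) carried at least 2 member names and 285 (45.5%) at least 2 numbers, and 49 were named outside the 9 segments in another library. Values for a copy are therefore values for a name in the alignment, and values for a number or for all 9 segments rest on fewer choices between near-identical copies.

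Together the 9 segments made up 12.1% and 12.2% of reads in the WT thymus libraries, 14.1% and 14.1% in KO thymus, 13.8% and 13.2% in WT LN, and 17.8% and 13.6% in KO LN. Both KO thymus libraries were above both WT thymus libraries, while in LN 1 KO library lay between the WT libraries. The KO mean was 14.9% ± 1.96 (SD, n = 4) and the WT mean 12.8% ± 0.801 (SD, n = 4), a difference of 2.12 percentage points that did not pass an exact permutation test within tissues (two-sided p = 0.111, adjusted over 11 values p = 0.244). The difference was 1.07 without KO LN library 1 and 3.17 without KO LN library 2. With 4 against 4 libraries in 2 tissues this test cannot give a p under 0.0556. Counted as shares of CDR3 sequences, the 9 segments held 10.9% and 10.3% in WT thymus, 12% and 11.7% in KO thymus, 12% and 11.6% in WT LN and 12.9% and 12% in KO LN. In each tissue both KO libraries were then above both WT libraries, KO LN library 2 only just, with a mean difference of 0.942 percentage points at the smallest p the design allows (exact permutation, p = 0.0556, adjusted p = 0.153). The same p was reached between tissues, where LN held 12.1% ± 0.557 and thymus 11.2% ± 0.753 of sequences (SD, n = 4 each; exact permutation, adjusted p = 0.244).

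Among the 9 names, TRAV6D-6 had the highest share of reads, with a median over the 8 libraries of 3.38% and a range from 2.53% to 6.22%. TRAV6N-7 followed with a median of 2.56%, then TRAV6-6 with 2.04%, TRAV6-7-DV9 with 1.97%, TRAV6D-7 with 1.66% and TRAV6N-6 with 1.07%. The segments numbered 5 were rarer, with medians of 0.515% for TRAV6-5, 0.414% for TRAV6N-5 and 0.0704% for TRAV6D-5, which had as few as 7 reads in a library. The ranges of neighbours in this order overlapped at every step. Within libraries, TRAV6N-6 was above TRAV6-5, and TRAV6N-5 above TRAV6D-5, in every library. Each other pair of neighbours changed order between libraries, so their order is not set.

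**Figure D1:**
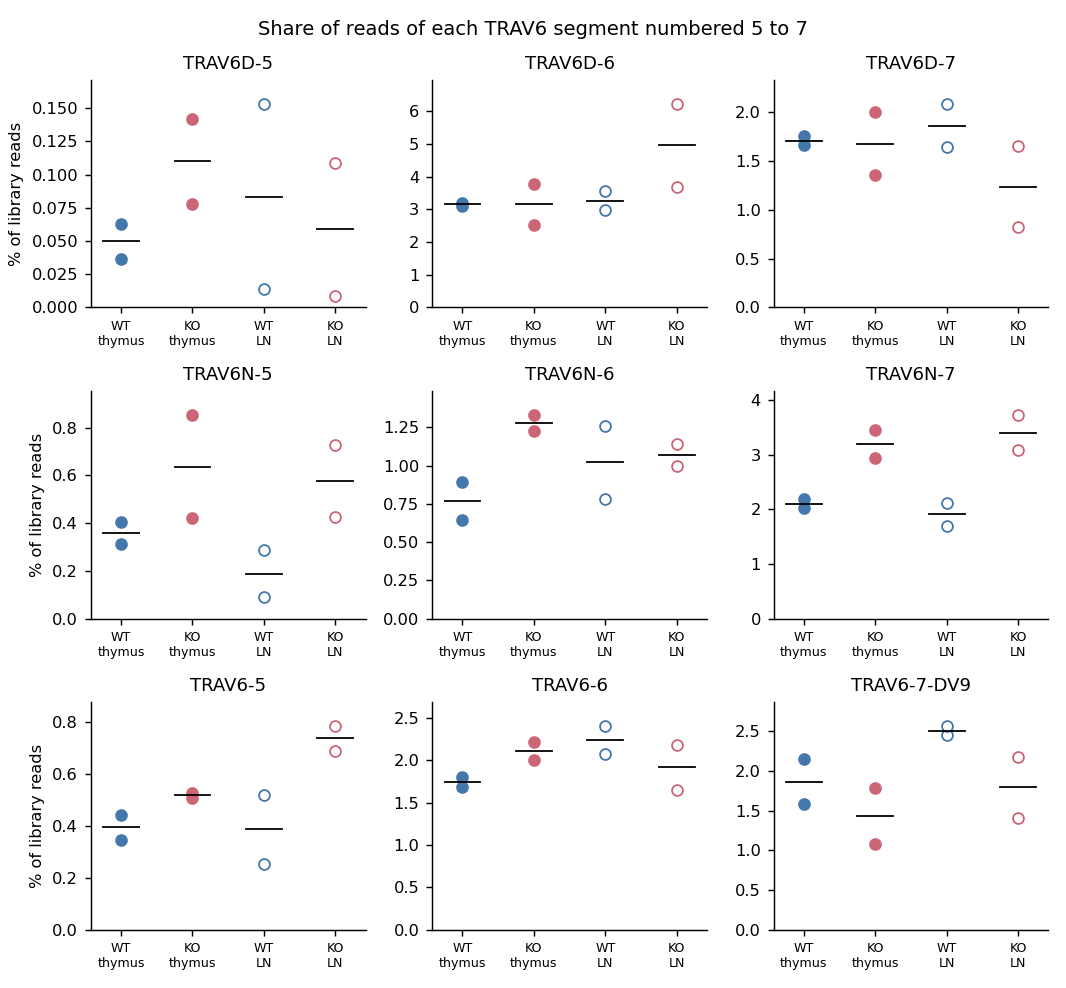
Share of library reads (%, y axis, from 0) of each of the 9 segments in the 4 groups (x axis), with a point for each library, a line at the group mean and panels in chromosomal order. TRAV6N-7 and TRAV6N-5 are the panels in which all 4 KO libraries lie above all 4 WT libraries.

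The question of the genotype comparison is whether a repertoire selected without Themis uses these segments differently. TRAV6N-7 held 2.18% and 2.02% of reads in WT thymus, 2.94% and 3.45% in KO thymus, 2.12% and 1.70% in WT LN, and 3.08% and 3.72% in KO LN. Its 4 KO libraries were thus above its 4 WT libraries without overlap, by reads and by sequences. TRAV6N-5 held 0.312% and 0.406% in WT thymus, 0.852% and 0.422% in KO thymus, 0.289% and 0.0888% in WT LN, and 0.726% and 0.424% in KO LN. It also did not overlap by reads, but KO thymus library 2 was only just above WT thymus library 2, and by sequences the groups overlapped. TRAV6-5 overlapped by reads, but by sequences its 4 KO libraries, at 0.511% to 0.597%, were above its 4 WT libraries, at 0.365% to 0.487%. By reads, 2 of 9 members compare with 5 of all 114 tested segments, or 4.39%, in which every KO library was above every WT library. In the opposite order were 0 of the 9 members and 7 of the 114 segments (6.14%). By sequences, no such share was counted over all segments, so the separations by sequences have no background beside them.

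The edgeR quasi-likelihood test on reads, with Benjamini-Hochberg adjustment over all 114 segments, called 0 of the 9 members between KO and WT thymus, where it called 0% of all segments. TRAV6N-7 was the 1 member with an unadjusted p under 0.05, against 8 of 114 segments (7.02%), at a log2 fold difference of 0.69 (SE 0.32, adjusted p = 0.553), and DESeq2 called 0 members. In LN edgeR again called 0 of 9 members, against 1.75% of all segments, and 2 members had an unadjusted p under 0.05, against 20 of 114 segments (17.5%). These were TRAV6N-7, at 0.81 (SE 0.32, adjusted p = 0.151), and TRAV6N-5, at 1.61 (SE 0.64, adjusted p = 0.151). DESeq2 called TRAV6N-7 there, at 0.92 (DESeq2, adjusted p = 0.0133). The share of all segments that DESeq2 called is not given here, so this call has no background beside it. For the difference between the genotype effects of the tissues, edgeR called 0 of 9 members, against 0.877% of all segments. DESeq2 also called 0. At an unadjusted p under 0.05 edgeR had 0 members, against 6 of 114 segments (5.26%). In simulated counts, 20 segments were changed in KO LN. The edgeR test called 1 of them in LN between genotypes at a log2 difference of 1, 10 at 2 and 17 at 3. Calls of 0 members therefore do not show equal use.

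A contrast chosen after these values were seen took the mean of the genotype effects in thymus and LN. It called 1 of 9 members, TRAV6N-7, which was higher in KO by 0.75 (log2, SE 0.23; edgeR, adjusted p = 0.03), beside 6.14% of all segments. TRAV6N-5 was at 1.28 (SE 0.45; edgeR, adjusted p = 0.0685). The call of TRAV6N-7 was lost when ties were shared equally between the tied names (0.55; edgeR, adjusted p = 0.107) and when any of 6 of the 8 libraries was left out, with adjusted p values up to 0.305. Its fold difference stayed at 0.71 to 0.84 (log2) in those 6 fits, which held fewer libraries. TRAV6D-7, whose sequences are nearly all tied with TRAV6N-7, was at -0.28 (SE 0.28; edgeR, adjusted p = 0.627), and with all copies of number 7 merged the difference was 0.09 (SE 0.15; edgeR, adjusted p = 0.757).

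**Figure D2:**
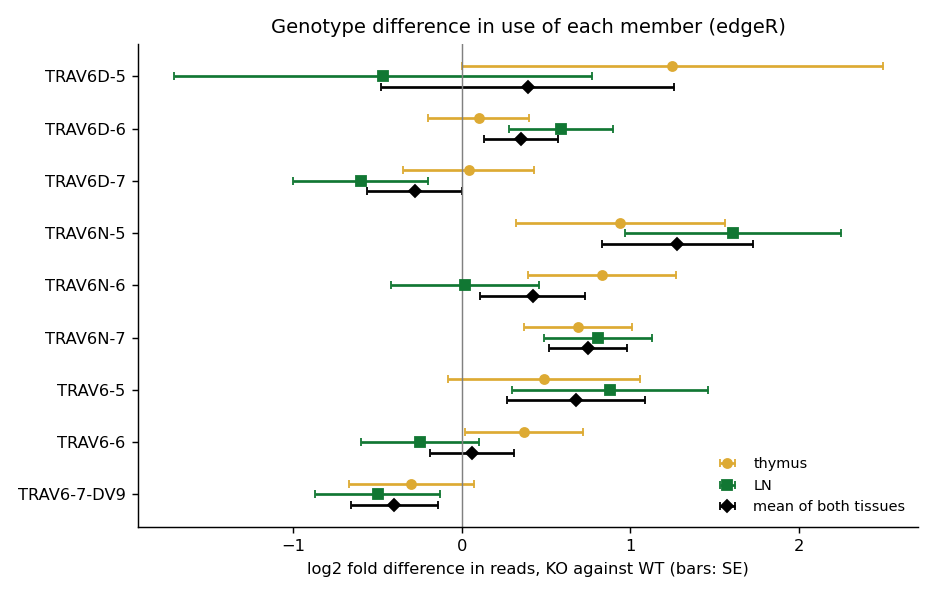
Log2 fold difference in reads between KO and WT (x axis) for each member (y axis) in thymus, in LN and as the mean of both. Bars are 1 SE, derived from the F statistic of the edgeR test. TRAV6N-7 lies to the right of 0 in thymus (0.69) and in LN (0.81), while TRAV6-7-DV9 lies to the left in both (-0.30 and -0.50).

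Merged by number, the copies of number 5 held 0.695% and 0.910% of reads in WT thymus, 1.52% and 1.01% in KO thymus, 0.697% and 0.623% in WT LN, and 1.52% and 1.22% in KO LN. Every KO library was above every WT library, and the mean genotype effect was 0.85 (log2, SE 0.36; edgeR, adjusted p = 0.173), which did not pass the threshold. How many of all merged segments separate in this way was not counted. The copies of number 6 ranged from 5.44% to 9.40% and those of number 7 from 5.37% to 7.24%, with overlapping genotypes.

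TRAV6-7-DV9, the copy nearest to the J cluster, which can also be used in δ chains, had a difference of the opposite sign. It held 1.28% and 1.92% of CDR3 sequences in WT thymus, 0.978% and 1.22% in KO thymus, 2.04% and 1.89% in WT LN, and 1.38% and 1.11% in KO LN. In each tissue both KO libraries were below both WT libraries. By reads the mean genotype effect was -0.40 (log2, SE 0.26; edgeR, adjusted p = 0.401) and was not called. With each CDR3 sequence counted as 1, it was -0.65 (SE 0.18; edgeR, adjusted p = 0.00733), a call made only in that one of the alternatives run, for a contrast that was itself chosen after the values were seen. The share of all segments called in that alternative is not given here. The call therefore has no background beside it and is not read as particular to TRAV6-7-DV9.

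Between LN and thymus, edgeR called 0 of 9 members in WT mice, with 0 at an unadjusted p under 0.05, against 0% of all segments, and 0 of 9 in KO mice, against 2.63% of all segments. DESeq2 called 0 in both. In KO mice 1 member had an unadjusted p under 0.05, against 18 of 114 segments (15.8%). This was TRAV6D-6, with 6.22% and 3.69% of reads in LN and 3.78% and 2.53% in thymus (log2 0.67, SE 0.31; edgeR, adjusted p = 0.225). Its thymus and LN libraries overlapped.

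The J partners set TRAV6-7-DV9 apart from the other members. The mean TRAJ number of its sequences was 42.4 and 42.7 in WT thymus, 41.4 and 43.2 in KO thymus, 43.0 and 42.2 in WT LN, and 40.9 and 43.1 in KO LN. The highest mean of any other member in any library was 36.1. Within libraries, TRAV6-7-DV9 was higher than each of the 8 other members in 8 of 8 libraries, by between 12.7 ± 2.55 (SD, n = 8) against TRAV6D-6 and 19.7 ± 2.94 against TRAV6N-6 (exact sign-flip permutation, p = 0.00781, the smallest it can give; adjusted over 8 comparisons p = 0.00781). This comparison was chosen after the values were seen. TRAJ40 and higher numbers made up 65.4% of its sequences (58.3% to 71.8% over the libraries), and TRAJ20 and lower numbers 4.29%. The mean was 42.6 over sequences that had it as the only best hit, 42.2 over those with a V alignment score of at least 600, and 44.3 weighted by reads. Its most frequent partners were TRAJ49 (11.4% of its sequences), TRAJ50 (10%) and TRAJ56 (6.35%).

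The mean TRAJ numbers of the other 8 names did not follow their order along the chromosome. Copies that lie far apart, such as TRAV6D-6 and TRAV6-6 or TRAV6D-7 and TRAV6N-7, had 0 mismatches over the last 280 bases. Whether the genes themselves form a gradient could therefore not be assessed. TRAV6D-6, TRAV6D-7, TRAV6-5 and TRAV6-6 had mean TRAJ numbers of 29.7 ± 2.17, 28.2 ± 2.67, 28.3 ± 6.73 and 28.8 ± 1.81 (SD, n = 8 libraries). For TRAV6-5 the mean was 24.8 over sequences with a V alignment score of at least 600 and 40.4 over those with a lower score. TRAV6N-5 was at 27 ± 2.48, and TRAV6D-5, with 68 sequences in all, at 25.4 ± 7.28 with a range from 17 to 36.1. TRAV6N-6 and TRAV6N-7 were lowest, at 22.6 ± 3.33 and 23.6 ± 2.64. TRAV6N-6 took 43.5% of its J segments from TRAJ20 and lower numbers, with TRAJ12 (9.38%), TRAJ23 (7.84%) and TRAJ21 (6.81%) most frequent. All other TRAV segments together had a mean of 28.5 ± 2.71. The 9 members as a set were 0.801 ± 0.708 above this (SD, n = 8; higher in 8 of 8 libraries; exact sign-flip permutation, adjusted p = 0.0104). Without V alignment scores under 600 the difference was 0.348 and did not pass (exact sign-flip permutation, p = 0.266), and without TRAV6-7-DV9 they were 1.06 below it (difference -1.06; exact sign-flip permutation, p = 0.0312).

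**Figure D3:**
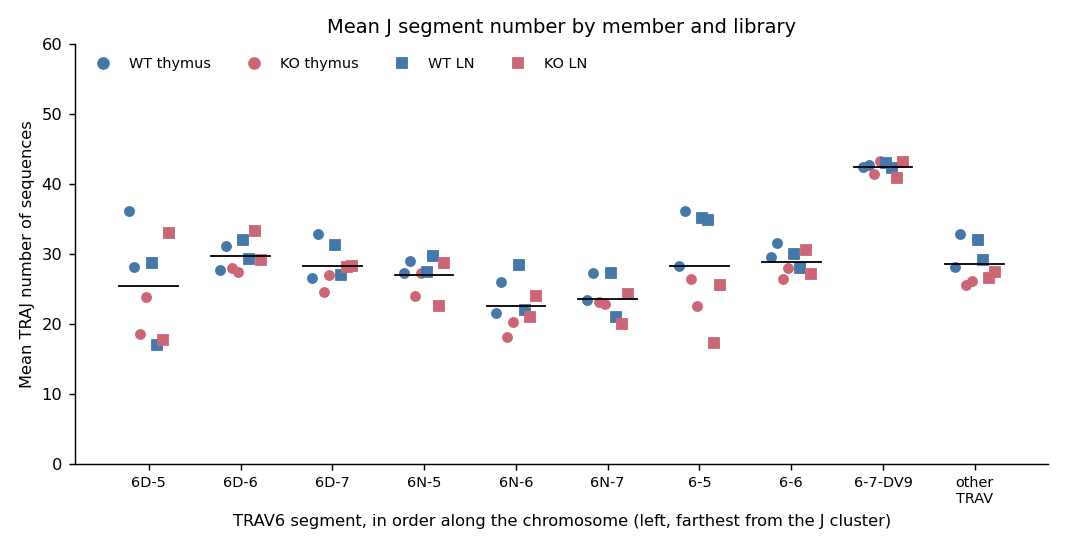
Mean TRAJ number of the CDR3 sequences (y axis) of each member in chromosomal order and of all other TRAV segments (x axis), with a point for each of the 8 libraries and a line at their mean. TRAV6-7-DV9 lies between 40.9 and 43.2 in every library, above every other point, and no other member exceeds 36.1.

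Over all members, the mean TRAJ number was 28.6 and 33.1 in WT thymus, 26.0 and 27.5 in KO thymus, 32.5 and 29.2 in WT LN, and 28.8 and 28.4 in KO LN. In each tissue both KO libraries were below both WT libraries, by 3.19 on average (difference -3.19; exact permutation, p = 0.0556, adjusted p = 0.153). Weighted by reads the difference was -1.76 (exact permutation, p = 0.222), and leaving out 1 library gave -4.32 to -2.06, the latter without WT thymus library 2. The other TRAV segments had the same order, at 28.1 and 32.9 in WT thymus, 25.6 and 26.1 in KO thymus, 32 and 29.1 in WT LN and 26.6 and 27.4 in KO LN. The difference was thus present in both sets of segments. The 5 J segments with the highest mean share of member reads were TRAJ22 (7.08% ± 1.87), TRAJ30 (5.58% ± 1.72), TRAJ31 (5.46% ± 1.39), TRAJ23 (4.71% ± 1.29) and TRAJ26 (4.63% ± 1.87; SD, n = 8). TRAJ22 ranged from 5.08% to 10.8% and TRAJ26 from 2.50% to 8.03%, and for none of these 5 did the members exceed the other segments in all 8 libraries. Of 119 V-J pairs of members with copies merged, edgeR called 0 in each of the 4 comparisons. Of all 1474 pairs it called 0% in thymus between genotypes, 0.0678% in LN between genotypes, 0% between tissues in WT mice and 0.136% between tissues in KO mice. At an unadjusted p under 0.05 were 3 member pairs in thymus between genotypes, against 28 of all 1474 (1.90%), and 13 in LN, against 150 (10.2%). Between tissues there were 4 member pairs in WT mice, against 37 of all (2.51%), and 15 in KO mice, against 134 (9.09%). In simulated counts, 200 pairs were changed in KO LN by a log2 difference of 1, 2 or 3. The edgeR test called 0 of them in LN between genotypes at each size. Calls of 0 pairs therefore do not show that the pairs did not differ.

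The CDR3s of the members differed from those of the other TRAV segments in the same libraries. They were longer, at 41.4 ± 0.266 bp against 40.4 ± 0.151 bp, with a difference of 0.996 ± 0.277 bp. Their net charge, counting lysine and arginine as positive and aspartate and glutamate as negative, was lower, at 0.195 ± 0.0811 against 0.450 ± 0.0594 (difference -0.255 ± 0.0420). Their hydropathicity, the Kyte-Doolittle values summed over the CDR3, was higher, at 2.89 ± 0.356 against 2.30 ± 0.292. An aspartate or glutamate at residue 5 was present in 51.7% ± 2.11 of member sequences and in 24.9% ± 0.895 of the others, a measure added after the values were seen. Each of these differences had the same direction in 8 of 8 libraries (SD, n = 8; exact sign-flip permutation, p = 0.00781, the smallest it can give; adjusted over 8 measures p = 0.0104). The members' germline ends printed above all lead into residue 5 with GA, so that choosing members by V segment already favours D or E there. The p-value for residue 5 is therefore not separate evidence. Net charge counts the same residues, and how much of its difference comes from residue 5 was not tested. Length and hydropathicity also include the germline V bases that enter the CDR3, which the choice by V segment sets. How much of these differences comes from those bases was not tested, so their p-values are not evidence separate from the choice. Bases inserted between V and J numbered 1.94 ± 0.166 in members and 2.00 ± 0.119 in the others, and the difference did not pass (exact sign-flip permutation, adjusted p = 0.242).

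**Figure D4:**
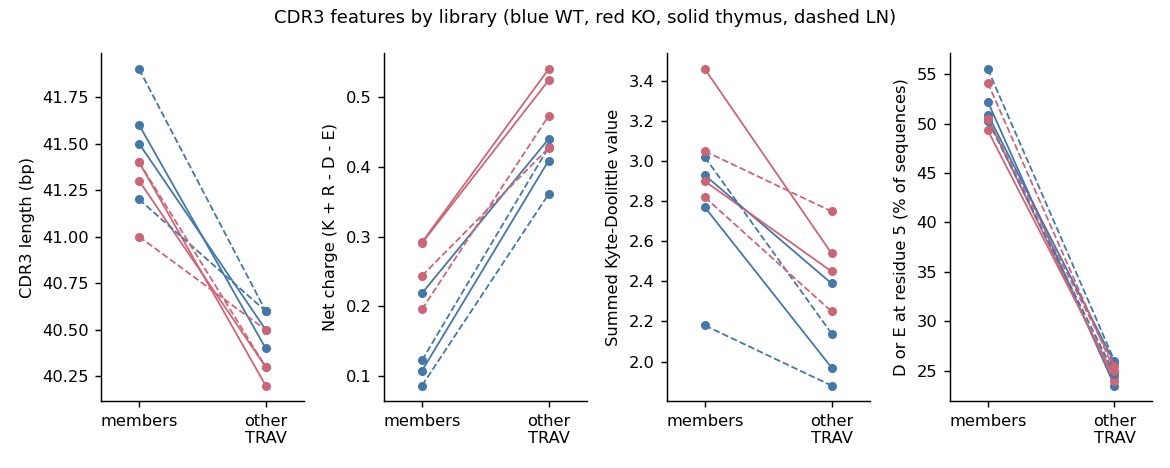
CDR3 length in bp, net charge, summed Kyte-Doolittle hydropathicity and share of sequences with D or E at residue 5 (y axes, which do not start at 0 and differ between panels) for member and other TRAV sequences (x axis), with 1 line for each library. In all 8 libraries the members are longer, less positively charged, higher in hydropathicity and about 51.7% against 24.9% acidic at residue 5.

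Among the members, the fourth residue followed the germline ends. Glycine stood there in 84.2% of TRAV6D-6, 81.5% of TRAV6N-7 and 80.9% of TRAV6D-5 sequences, and serine in 73.5% of TRAV6-7-DV9, 65.9% of TRAV6N-6 and 54.4% of TRAV6-5 sequences. TRAV6N-5 went against its reference end: 49.0% of its sequences had serine and 33.2% glycine, although the annotated gene reads GGT. Of TRAV6-5 sequences, whose reference reads AGT, 23.4% had glycine. This base is the 1 mismatch between the references of TRAV6N-5 and TRAV6-5 over the last 280 bases. The 2 names were therefore not separated by it, and their values, also between genotypes, are not values of 2 distinct genes. TRAV6D-7, with the end of TRAV6N-7, had serine in 17.2%. Mean CDR3 length was highest for TRAV6-7-DV9, at 42.5 ± 0.539 bp, and lowest for TRAV6N-7, at 40.7 ± 0.544 bp (SD, n = 8). TRAV6N-7 also had the fewest inserted bases, 1.57 ± 0.336, and 41.1% of its sequences had none, against 29.9% of TRAV6-7-DV9.

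CDR3 features of the members did not pass a test between genotypes. Net charge was 0.219 and 0.108 in WT thymus, 0.291 and 0.292 in KO thymus, 0.0867 and 0.123 in WT LN, and 0.196 and 0.244 in KO LN, so that in each tissue both KO libraries were above both WT libraries (difference 0.122; exact permutation, p = 0.0556, adjusted p = 0.153). The other TRAV segments had 0.440 and 0.409, 0.524 and 0.540, 0.361 and 0.428, and 0.473 and 0.427 in the same order of libraries. Inserted bases were fewer in both KO libraries than in both WT libraries of each tissue, with means of 1.85 ± 0.185 in KO and 2.03 ± 0.0895 in WT (SD, n = 4 each; exact permutation, p = 0.0556, adjusted p = 0.153). Weighted by reads the difference was -0.0289 (exact permutation, p = 0.778). The other TRAV segments had the same order, at 2.09 and 2.14 in WT thymus, 1.99 and 1.91 in KO thymus, 2.04 and 2.11 in WT LN, and 1.85 and 1.83 in KO LN. Length (41.3 ± 0.184 bp in KO, 41.6 ± 0.273 bp in WT) and hydropathicity (3.06 ± 0.285 and 2.73 ± 0.376) did not pass either (exact permutation, adjusted p = 0.262 and 0.382).

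Clonal diversity of the members was compared at 7559 reads, the size of the smallest set. This many reads held 1531 and 892 different CDR3 sequences in WT thymus, 1176 and 1186 in KO thymus, 1261 and 666 in WT LN, and 520 and 616 in KO LN. KO LN was the lowest group and did not overlap with KO thymus or WT LN, but 2 libraries against 2 cannot give a p under 0.333, and the WT libraries of each tissue lay far from each other. The KO LN libraries also held the fewest CDR3 sequences of all V segments together, 4357 and 5416, against 5753 to 16670 in the others. These totals are not at equal reads, and richness of the other segments at equal reads was not compared. Over both tissues the difference between KO and WT was -213 sequences (exact permutation, adjusted p = 0.428), and that between LN and thymus was -430 (exact permutation, adjusted p = 0.244). The genotype difference was -53.3 without WT thymus library 1, -64.3 without WT LN library 1, -373 without WT thymus library 2, -362 without WT LN library 2 and -93.2 without tied sequences. The tissue difference was -270 without WT thymus library 1, -282 without WT LN library 2, -590 without WT thymus library 2, -579 without WT LN library 1 and -245 without tied sequences. Sequences of members carried more reads than those of other TRAV segments in 8 of 8 libraries, 13.4 ± 4.0 against 10.9 ± 2.53 reads per sequence (SD, n = 8; exact sign-flip permutation, adjusted p = 0.0104). The difference of 2.49 reads fell to 0.914 when sequences with a V alignment score under 600 were left out (exact sign-flip permutation, p = 0.0234), and in KO thymus library 2 members then had 9.08 reads per sequence and the others 9.17.

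Low V alignment scores were more frequent among abundant member sequences than among those with 1 read. The scores fell into a high group and a low one, divided at 600. Of member sequences with 1 read, 9.95% had a score under 600, and of the 127 with over 100 reads in all libraries together, 61.4% did. By library the latter share was 60% to 87.5% in 6 libraries, but 32% and 40% in the KO LN libraries. For the other segments these shares were 1.25% and 15% (of 393). Low-score sequences made up 7.12% to 14.1% of member sequences by library, but 16.2% to 29.4% of member reads, against 2.41% to 5.50% of the reads of other segments. Low-score sequences were tied between different numbers in 42.0% of cases, and the others in 0.0122%. The share of low-score reads was 42.3% for TRAV6-5, 40.8% for TRAV6-7-DV9, 33.1% for TRAV6N-6 and 32.4% for TRAV6-6, but 13.2% for TRAV6N-7, 9.67% for TRAV6D-6 and 0% for TRAV6D-5. The part of these sequences in the read shares was not tested beyond leaving them out: the mean genotype effect of TRAV6N-7 was then 0.72 and just missed the threshold (edgeR, adjusted p = 0.0503). Of the differences from the other segments, that in reads per sequence was then 0.914 and that in TRAJ number 0.348, as given above.

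**Figure D5:**
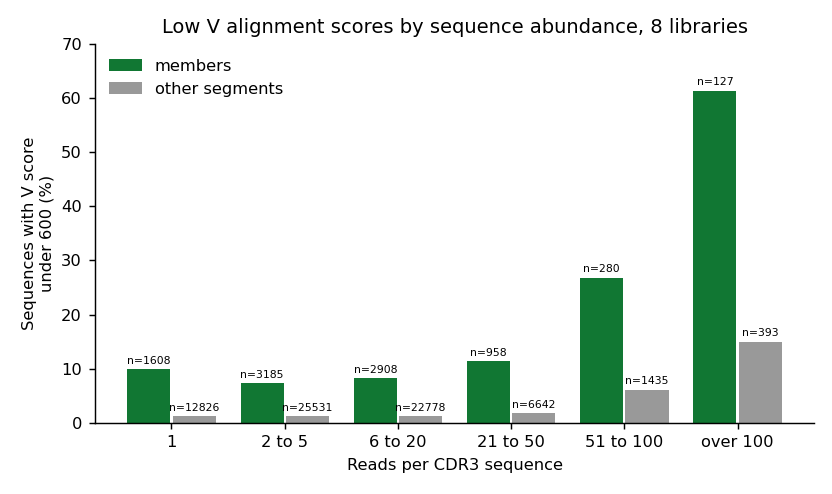
Share of CDR3 sequences with a V alignment score under 600 (%, y axis, from 0) by the number of reads of the sequence (x axis), for members and for all other segments over the 8 libraries, with the number of sequences above each bar. The members rise from 9.95% at 1 read to 61.4% above 100 reads, and the other segments from 1.25% to 15%.

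The largest member clones show the same. In KO thymus library 2 the largest member clone was the most abundant sequence of the whole library, with 745 reads, 4.56% of member reads, and it was listed as TRAV6N-7 with TRAJ12 and a V score of 270. The largest clones of the other libraries held 1.02% to 2.71% of member reads, and 6 of the 8 had a score under 600. Those of WT thymus library 1 (TRAV6-7-DV9 with TRAJ35, 154 reads, score 681) and KO LN library 1 (TRAV6D-6 with TRAJ48, 289 reads, score 1513) were the exceptions. These 3 are shown because they span the kinds of largest clone, with the bases aligned to V in capitals:
KO thymus library 2: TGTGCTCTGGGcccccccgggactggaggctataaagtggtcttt
WT thymus library 1: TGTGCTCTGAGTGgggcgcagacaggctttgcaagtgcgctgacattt
KO LN library 1: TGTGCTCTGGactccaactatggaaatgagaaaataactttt
The first was also found in WT LN library 1, and the others in no second library. In WT thymus library 2 the largest clone, 242 reads with TRAJ22 and a score of 281, encoded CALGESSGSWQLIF and was present in 3 further libraries of both genotypes. In WT LN library 2 it encoded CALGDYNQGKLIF with TRAJ23, held 203 reads and was present in 3 further libraries. The largest clones of KO thymus library 1 (436 reads, TRAV6N-5 with TRAJ37, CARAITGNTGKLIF), WT LN library 1 (230 reads, TRAJ32) and KO LN library 2 (299 reads, TRAV6-7-DV9 with TRAJ58) were in no other library.

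Most member CDR3s were private to a library. Of the 6170 amino acid CDR3s, 5268 (85.4%) occurred in 1 library, 601 in 2 and 1 in all 8, and 592 (9.59%) occurred in both genotypes. Libraries 1 and 2 of a group shared 2.31% (KO LN) to 5.89% (KO thymus) of their combined member CDR3s. Those shared most widely show how the same amino acid loop was encoded by different nucleotides, with the bases aligned to V in capitals. The V alignment can run past the 14 germline bases shown above and overlap the J alignment, so that in some of these sequences the last capitals are bases aligned to both:
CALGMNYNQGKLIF: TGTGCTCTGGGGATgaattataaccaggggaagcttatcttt
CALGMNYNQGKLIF: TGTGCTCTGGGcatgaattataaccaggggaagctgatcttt
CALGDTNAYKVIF: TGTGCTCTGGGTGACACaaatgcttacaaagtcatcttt
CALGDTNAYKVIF: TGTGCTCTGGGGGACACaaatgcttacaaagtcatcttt
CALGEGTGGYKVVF: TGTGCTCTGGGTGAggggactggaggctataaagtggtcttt
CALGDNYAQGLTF: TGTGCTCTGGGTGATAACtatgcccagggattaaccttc
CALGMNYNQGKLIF, with TRAJ23, was the CDR3 in all 8 libraries, and 6 nucleotide sequences under 4 member names encoded it. Among these 6 were pairs that differed only within the J part (aagctt or aagctg). A count of nucleotide sequences is therefore not a count of separate V-J joins. The loop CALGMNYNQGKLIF held 0.165% and 0.292% of member reads in WT thymus, 0.412% and 0.325% in KO thymus, 0.0926% and 0.0926% in WT LN, and 0.118% and 0.0635% in KO LN. All 4 thymus libraries were thus above all 4 LN libraries, but these shares are small, and how many other CDR3s separate in this way was not counted. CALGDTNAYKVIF, with TRAJ30, was in 7 libraries, encoded by 7 nucleotide sequences. It was not found in KO LN library 1 and reached 1.72% of member reads in KO LN library 2. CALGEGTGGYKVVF, with TRAJ12, was in 7 libraries and ranged from 0% in WT thymus library 2 to 2.20% in WT LN library 2. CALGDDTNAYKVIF, with TRAJ30, and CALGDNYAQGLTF, with TRAJ26, were also in 7 libraries, at means of 0.187% and 0.184% of member reads. In each of these 5 loops the glycine of the GGT ends stands at position 4, and in 4 of the 5 aspartate or glutamate follows it. Intervals and limits from counts would cover counting error only, as PCR reads without molecular identifiers are not independent molecules.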

How the data were processed

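CD8 cells were sorted and TCRα cDNA made by template switching was amplified in 2 rounds of PCR with a constant-region primer, sequenced on a MiSeq and analysed with MiXCR by the authors, without molecular identifiers. The sources used here do not give MiXCR's version or V segment library. The submitters' processing notes name mm9 and CASAVA 1.4. The authors deposited 1 row for each CDR3 nucleotide sequence, with a read count that is not normalized and a fraction, which equals the count divided by the library total. Reads of 1 CDR3 sequence with different V copies thus share a row. Clone numbers missing from the deposited counts were 13.9% to 16.9% of a library's numbering. Only the 8 unsorted libraries were used.

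Reads per V segment, and per V-J pair with copies merged, were tested with edgeR 4.0.16 (quasi-likelihood, TMM, 4 groups in 1 fit, features of 10 or more reads in 2 or more libraries), which kept 114 segments and all 9 members. Calls had an adjusted p under 0.05 (Benjamini-Hochberg). The SE given with an edgeR value is the absolute log2 fold difference divided by the square root of the test's F statistic. DESeq2 1.42.0 was an alternative. Single values were averaged over sequences and tested by exact two-sided permutation over libraries, within tissue or genotype, or by sign flips within libraries. The scripts were tested on simulated data. Python 3.11.15, numpy 2.4.6, pandas 2.3.3, Biopython 1.88, matplotlib 3.10.9 and R 4.3.3 were used, with gene models and sequences of GENCODE M21 on GRCm38.

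The text names the 5 J segments with the largest mean share of member reads. It names the 5 CDR3s of at most 14 residues found in the most libraries, then by mean share, and the largest clone of each library. The members and lists were chosen with earlier results of these data known. The library totals give a limit of 0.00205% to 0.00522% of reads for a count of 0. The genotype contrast over both tissues, the score limit of 600, residue 5 and the comparisons of TRAV6-7-DV9 were chosen after seeing the data. Alternatives are given with the closing section.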

Additional observations from a re-analysis of the deposited data

Results flagged for a closer look

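The genotype difference in the share of CDR3 sequences had opposite signs in the 2 tissues for TRAV6D-7 and for the copies of number 7 together. TRAV6D-7 was lower in both KO LN libraries than in both WT LN libraries, by 0.400 percentage points on average (difference -0.400), and higher in both KO thymus libraries than in both WT thymus libraries, by 0.265. With sequences counted in place of reads, edgeR's test of the difference between these effects gave a log2 value of -0.38 (SE 0.31, adjusted p = 0.978). The copies of number 7 differed by -0.595 percentage points in LN and 0.320 in thymus; this difference between tissues was not tested on sequences, and on reads with copies merged it was -0.10 (log2, SE 0.30; edgeR, adjusted p = 0.992).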

How the results depend on the processing

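Depth was limited to 2 libraries a group and, for the rarest member, to 7 reads in a library. For the alternatives below, the shares of all segments called are not given, so their calls have no background beside them. The alternatives called 0 of 9 members in every comparison between 2 groups, with these exceptions: in LN between genotypes DESeq2 called 1, and leaving out 1 library gave 0 to 2 calls (1 without WT LN replicate 1, TRAV6N-5, and 2 without KO LN replicate 2, TRAV6N-5 and TRAV6D-6), and between tissues in KO mice leaving out 1 library gave 0 to 1 (TRAV6D-6 without KO LN replicate 2). For the mean of both tissues, where 1 member was called, DESeq2 (TRAV6N-7 and TRAV6N-5) and counting sequences (TRAV6N-7 and TRAV6-7-DV9) called 2 each, sharing or leaving out ties, merging copies and leaving out scores under 600 called 0 each, and leaving out 1 library gave 0 to 2, with 0 for every library except WT LN replicate 1 and KO LN replicate 2 (2 each, TRAV6N-7 and TRAV6N-5). For V-J pairs of members, where 0 were called, leaving out 1 library gave 0 to 1 calls in thymus between genotypes (TRAV6-7 with TRAJ52, without KO thymus replicate 2), 0 to 2 in LN between genotypes (2 without KO LN replicate 2, TRAV6-6 with TRAJ57 and TRAV6-7 with TRAJ50, and 1 without KO LN replicate 1, TRAV6-7 with TRAJ47) and 0 to 4 between tissues in KO mice (4 without KO LN replicate 2 and 1 without KO thymus replicate 2).

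With the replicate block, 0 members and 0 member pairs were called in every comparison between 2 groups, and TRAV6N-7 stayed called over both tissues (edgeR, adjusted p = 0.0442). The numbers share only a number: replicate differences of KO and WT correlated at -0.101 in thymus and -0.198 in LN over 114 segments. With crossed numbers the block also called 0 members in both tissues.

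Differences between members and other segments kept their direction and their side of the threshold under every alternative except these. For the TRAJ number, the value was 0.348 without scores under 600, which no longer passed, and -1.06 without TRAV6-7-DV9. The share of single reads passed without TRAV6-7-DV9 (-1.36 percentage points). Leaving out 1 library gave 0.595 to 0.898 for the TRAJ number. Between genotypes no mean difference changed sign. Between tissues, leaving out 1 library gave -0.225 to 2.04 for the TRAJ number, -0.254 to 0.0767 bp for length, -0.751 to 0.473 percentage points for the largest clone and -0.0173 to 0.0102 for nucleotide sequences per amino acid CDR3. The largest clone was at 0.962 without scores under 600, and nucleotide sequences per amino acid CDR3 at 0.00189 without single reads and 0.00904 without ties. The share of member reads, LN minus thymus in KO mice, was -0.472 to 3.73 with 1 library left out, negative without KO LN replicate 1. The cause was not tested.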
